A study of Mus musculus with 4 samples.

Results

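The replication-dependent histone genes are the clustered genes from which dividing cells make most of their H1, H2A, H2B, H3 and H4 protein. Their members were taken by symbol, as every feature of the deposited expression tables whose name starts with Hist1h, Hist2h, Hist3h or Hist4h. This gave 64 of the 21690 features, namely 6 H1, 17 H2A, 17 H2B, 12 H3 and 12 H4 genes. A filter on low values, a mean of at least 1 FPKM (mapped fragments per transcript length and library size) over the 4 libraries, kept 62 of them. Hist1h1t, the testis H1 gene, was listed at 0 in every library, and Hist2h2be lay between 0.317 and 0.743 FPKM. Those 2 are left out of ratios and limma. Hist2h2be is included in class sums and, where it had a usable test, in counts from the deposited tests.

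RNA was measured in neural precursors that had been made from A2lox mouse embryonic stem (ES) cells, as a monolayer in N2B27 medium. All 4 libraries came from ES cells built for doxycycline-dependent knockdown of Geminin (the labels speak of clonal derivatives of A2lox, and the number of clones is not given), a small protein that keeps Cdt1 from licensing replication origins again. The 3 knockdown libraries came from independent experiments, with 500 ng doxycycline from day 3 and harvest on day 5, and are called knockdown libraries 1, 2 and 3. The control is 1 library of the same line without doxycycline, so doxycycline and the knockdown cannot be told apart. The control has no replicate and enters every comparison. The ES cells had been grown on mouse embryonic fibroblast feeders before differentiation.

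As a rule, histone genes of this kind carry no introns, and their transcripts end in a short stem-loop in place of a poly(A) tail. The stem-loop is bound by Slbp, cut free with the help of the U7 small nuclear ribonucleoprotein, and keeps the messenger stable during S phase. Cells therefore make these histones while DNA is being copied. Replication-independent variants such as H2afz and H3f3b are made from ordinary polyadenylated transcripts. How the sequenced RNA was selected, with or without poly(A), is not given in the sources used here. In bulk RNA a smaller share of cells in S phase and less histone RNA per cell cannot be told apart.

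The stem-loops are shown because they are the part of the transcript that the listed gene spans can miss. A search of the first 100 bases after the stop codon in GENCODE M21 transcripts (GRCm38) on the transcript strand found the stem-loop pattern in 32 members. The pattern is 16 bases that start with GG, have TTNTCA in the middle and end with CC, with any 3 bases on each side of the middle. Of all coding transcripts with at least 100 bases after the stop codon, 0.0970% held one. Only 4 H1, 5 H2A, 7 H2B, 5 H3 and 7 H4 members had that many bases, and the others were searched over fewer. Some, such as Hist1h4k, had 0 bases there. A member without a match is therefore not shown to lack the stem-loop. The 26 bases around the match, with the 16 bases of the stem-loop in capitals, read as follows.
Hist1h2ao: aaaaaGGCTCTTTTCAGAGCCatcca
Hist1h3b: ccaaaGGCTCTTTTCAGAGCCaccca
Hist1h4d: ccaaaGGCCCTTTTCAGGGCCactac
Hist1h4j: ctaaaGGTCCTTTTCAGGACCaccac
The first form was found in 23 members of the H1, H2A, H2B and H3 classes. The form of Hist1h4d was found in 6 H4 genes, that of Hist1h4j in 2, and 1 H4 gene had a further form. The listed span of 32 of the 62 members with a coding model was exactly as long as the coding sequence, including 9 of the 12 H4 genes at 312 bases. For those genes the FPKM values were set against a length that leaves out the stem-loop. In all, 40 of the 64 listed spans were under 500 bases. Some annotated transcripts ran far past the stem-loop, by 770 bases for Hist1h4d and 2445 bases for Hist4h4. The part of such longer forms in the values was not tested.

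Members of a class also share most of their coding sequence, which bears on how reads can be assigned to single genes. The first 60 coding bases of 4 H2A genes are shown, with capitals where a base differs from Hist1h2ao.
Hist1h2ao: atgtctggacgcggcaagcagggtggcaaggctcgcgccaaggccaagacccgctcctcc
Hist1h2ad: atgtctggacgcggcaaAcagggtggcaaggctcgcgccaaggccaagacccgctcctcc
Hist1h2an: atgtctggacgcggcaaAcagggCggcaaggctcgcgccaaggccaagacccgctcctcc
Hist2h2aa1: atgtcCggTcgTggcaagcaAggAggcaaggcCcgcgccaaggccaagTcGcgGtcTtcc
Over the 393 coding bases, Hist1h2ad differed from Hist1h2ao at 3 positions, Hist1h2an at 5 and Hist2h2aa1 at 34. Of all stretches of 50 coding bases, the median H2A gene shared 82.0% with a gene at another locus. The median was 81.8% for H3, 72.2% for H2B, 69.0% for H4 and 10.9% for H1. Single-gene values in the core histone classes are therefore uncertain, and how the authors' software divided shared reads is not given in the sources used here.

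Gmnn, which encodes Geminin, checks the labels. Its level was 27.0, 65.9 and 27.9 FPKM in knockdown libraries 1, 2 and 3, against 113 FPKM in the control, so 24.0%, 58.4% and 24.7% were left. Depth relative to the control, read from the steps of low values, was 1.00, 1.15 and 0.971, and absolute depth is unknown. The median log2 ratio over all 12243 features passing the filter was between -0.01 and 0.03 in the 3 libraries. Neural precursor markers were present in every library, and all 12 on the list passed the filter. Pluripotency markers moved between libraries: the 12 on the list summed to 85.05, 341 and 556 FPKM in libraries 1, 2 and 3, against 63.1 FPKM in the control. No exact permutation test was made, since with 1 control its smallest possible p is 0.25 one-sided and 0.5 two-sided.

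The histone genes did not move one way across the knockdown libraries. Library 1 was mostly slightly below the control, library 2 mostly slightly above it, and library 3 above it for nearly every member. On the scale log2((knockdown FPKM + 1)/(control FPKM + 1)), the medians over the 62 members were -0.23, 0.18 and 0.76 in libraries 1, 2 and 3. In library 1, 15 members were higher and 47 lower, where 46.1% and 53.6% of all filtered features were. In library 2, 42 were higher and 20 lower, against a background of 54.1% and 45.5%. In library 3, 61 were higher and 1 was lower, against a background of 52.0% and 47.6%.

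Differences of at least 1.5-fold upwards were mostly in library 3. At least 1.5-fold higher than the control on this scale were 1, 5 and 35 members in libraries 1, 2 and 3, against 1.45%, 8.67% and 8.82% of all features. At least 1.5-fold lower were 7, 5 and 0 members, against 1.90%, 5.97% and 4.79%. Only 14 members were higher in all 3 libraries, where 22.9% of all features were, and 1 was lower in all 3, where 22.6% were. The member lower throughout was Hist2h3c2-ps, by its symbol an H3 pseudogene, at 0.918, 0.361 and 1.18 FPKM against 2.01 FPKM. Its control value was 1.83, 2.09 and 2.10 FPKM in the tables of libraries 1, 2 and 3. That of Hist2h3c1, another H3 gene of chromosome 3, moved the other way, at 6.22, 5.60 and 5.59 FPKM. The part of read assignment in these values was not tested.

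**Figure D1:**
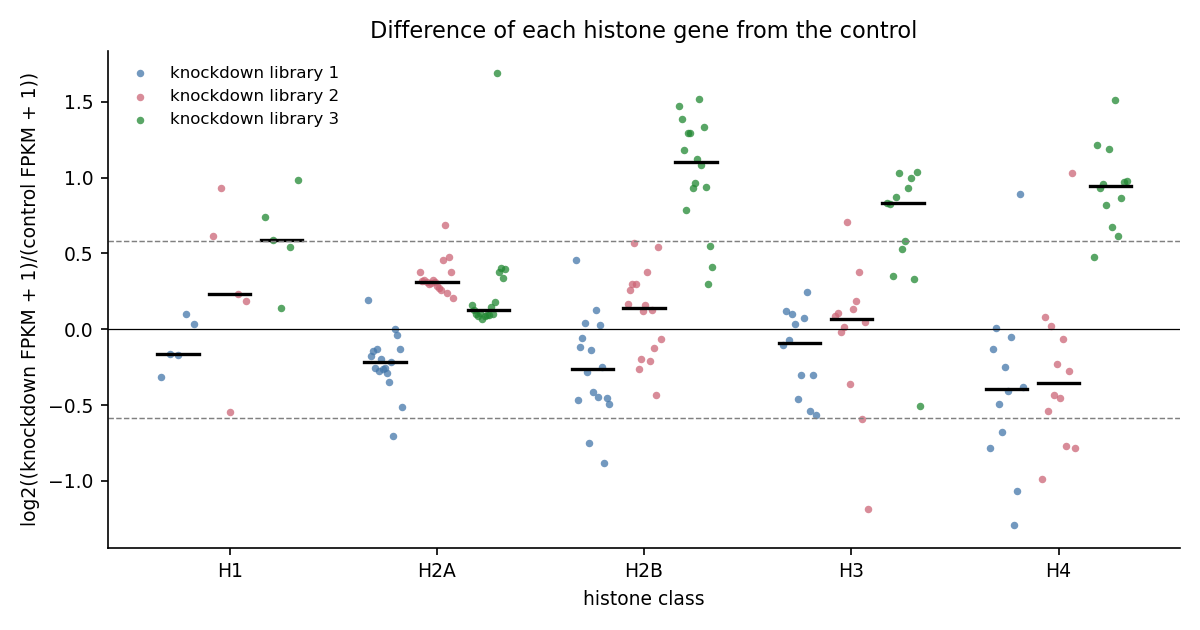
Log2 ratio of each of the 62 histone genes to the control (vertical axis, pseudocount 1 FPKM) by class, with 1 point per gene, colours for the 3 knockdown libraries, black bars for class medians and dashed lines at a 1.5-fold difference. In library 3 the H1, H2B, H3 and H4 medians lie at or above 0.59, while the H2A median is 0.13.

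No member was called by either test across libraries. Under the study's rule, a deposited mark of significance in at least 2 of the 3 tables and in 1 direction, 0 of the 57 members that could be called were called, where 1.98% of all callable features were called higher and 0.905% lower. Limma, fitted over all 12243 features with Benjamini-Hochberg adjustment, called 0 of the 62 members, against 0.0245% of features called higher and 0.131% lower. The lowest adjusted p of a member in limma was 0.892. At an unadjusted p under 0.05, limma gave 1 member, Hist2h4, where 1.32% of all features passed. Without library 1 that count was 5 members, all higher, beside 10.2% of features. Without library 3 it was 1 higher and 2 lower, beside 0.858%. The spread in limma comes from the knockdown libraries, and the single control is taken to vary like them. Gmnn was not called by limma either, at a log2 ratio of -1.59, though the study's rule called it lower. A member that was not called is therefore not shown to be unchanged.

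The authors' deposited tables, which each set 1 library against 1 library, marked 1 member in 1 table. It was Hist2h2aa1, an H2A gene of the chromosome 3 cluster, in knockdown library 3, with a deposited p-value of 0.0018, where 3.33% of tested features were marked higher and 1.28% lower in that table. In the tables of libraries 1 and 2 no member was marked, beside 0.909% and 3.23% of features marked higher and 1.52% and 2.02% lower. Before adjustment, 8 of 62 tested members had a deposited p-value under 0.05 and were higher in library 3, beside 8.78% of all features, and 0 were lower, beside 4.24%. For library 1, 6 of 51 tested members were lower at that level, beside 7.76%, and 0 were higher, beside 5.30%. For library 2, 1 of 57 was higher and 1 lower, beside 8.07% and 5.20%. These tests compare the libraries, not the conditions.

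H1 genes encode the linker histones, which sit on the DNA between nucleosomes. Their levels were low, at 1.34 to 6.85 FPKM in the control for the 5 that passed the filter. Hist1h1c, the most abundant in the control, was at 5.97, 4.37 and 7.65 FPKM in the knockdown libraries against 6.85 FPKM. Hist1h1a was at 4.78, 10.04 and 11.04 FPKM against 6.21 FPKM, and Hist1h1b at 3.58, 8.79 and 6.73 FPKM against 4.14 FPKM. For Hist1h1a and Hist1h1b library 1 was below the control and libraries 2 and 3 above it, while Hist1h1c was above it in library 3 only. The class median log2 ratio was -0.17, 0.23 and 0.59. Summed over the class, the level was 126% ± 36.3 (SD, n = 3) of the control.

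H2A genes gave most of the histone signal and differed least between libraries. H2A and H2B pair as dimers in the nucleosome. The class summed to 1988 FPKM in the control, out of 2423 FPKM for all members, while H2B, H3 and H4 summed to 122, 68.3 and 225 FPKM. H2A genes share much coding sequence, and whether these sums count shared reads more than once is not known. Hist1h2ao (chromosome 13, 21924931 to 21925444, mm9) was at 535, 854 and 705 FPKM against 621 FPKM, above 98.7% of the filtered features in the control. Its listed span overlaps another feature, Gm11276, so its reads may not all be its own. Hist1h2ad was at 157, 233 and 200 FPKM against 188 FPKM, and Hist1h2ah at 156, 233 and 200 FPKM against 188 FPKM. Each of these 3 was lowest in library 1 and highest in library 2. Hist1h2an, with the lowest mean ratio of the class, followed the same order at 124, 190 and 170 FPKM against 158 FPKM.

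The H2A genes of the large cluster on chromosome 13 moved nearly in step. Leaving out Hist1h2aa, which shares few coding windows with the others, 11 genes ranged from 10.97 to 621 FPKM in the control. Relative to the control they lay between 78.5% and 91.2% in library 1, 120% and 137% in library 2, and 105% and 113% in library 3. The median shared coding sequence of the class is given above, and its part in this narrow range was not tested. The class sum was 108% ± 21.3 (SD, n = 3) of the control, a difference smaller than the spread between libraries.

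Hist2h2aa1 stood apart from the rest of its class in library 3. It was at 1.44, 5.89 and 13.6 FPKM in libraries 1, 2 and 3, against a control of 3.26 FPKM as the mean over the tables and 3.52 FPKM in the table of library 3. That places library 1 below and libraries 2 and 3 above the control. Its log2 ratio in limma was 0.56 with an SE of 0.97 and an adjusted p of 0.993. The gene lies on chromosome 3 from 96049461 to 96050038 (mm9), and that listed span overlaps the one of Hist2h2aa2, whose coding sequence is identical. Hist2h2aa2, named here for that reason, was at 85.1, 99.7 and 109 FPKM against 84.5 FPKM, so the division of reads between the pair is uncertain.

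**Figure D2:**
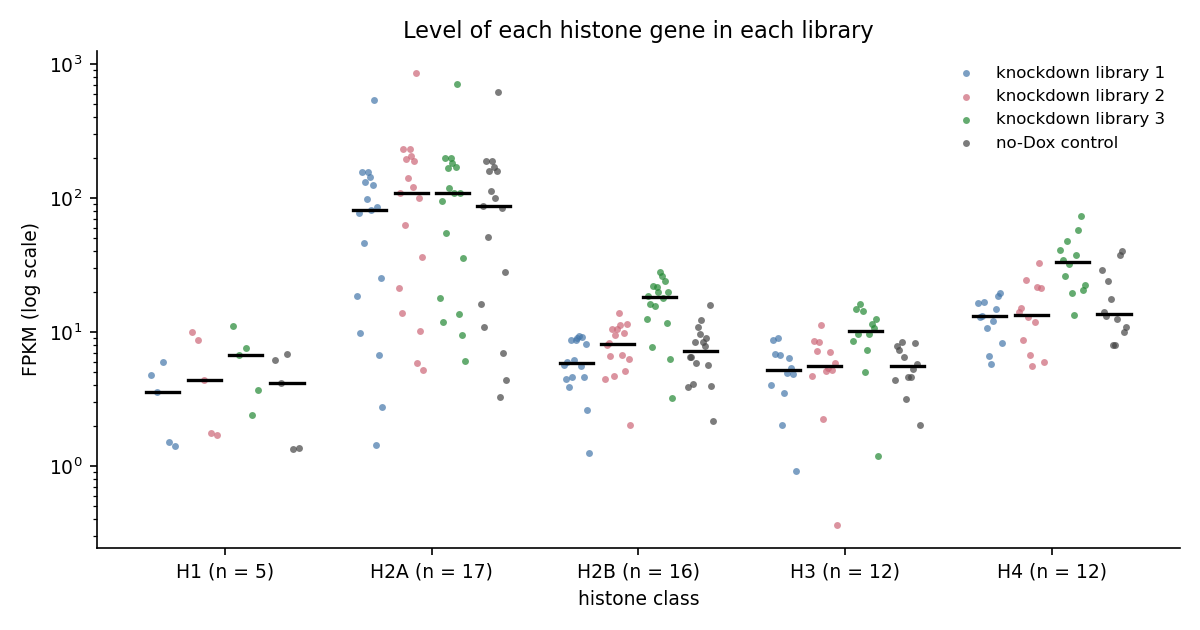
FPKM of each histone gene that passed the filter (vertical axis, log scale) by class and library, with 1 point per gene and black bars for medians. H2A genes reach 535 to 854 FPKM in the 4 libraries, and the library 3 medians of H2B, H3 and H4 lie above those of the other libraries.

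H2B genes showed the largest class median in library 3. The medians were -0.26, 0.14 and 1.10 on the log2 scale in libraries 1, 2 and 3, and 13 of 16 members were at least 1.5-fold higher in library 3, where 8.82% of all features were. Hist1h2bk was at 8.99, 13.8 and 28.0 FPKM against 12.3 FPKM. Hist1h2bl was at 9.35, 11.3 and 26.1 FPKM against 8.47 FPKM. Hist1h2ba, a testis H2B gene with the highest mean ratio of the class, was at 5.68, 4.48 and 12.5 FPKM against 3.87 FPKM. In all 3 genes library 3 was the highest library, and libraries 1 and 2 lay nearer to the control. Hist2h2bb was at 8.17, 11.5 and 19.8 FPKM against 15.9 FPKM, the lowest mean ratio of the class.

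Single H2B values were imprecise even between 2 libraries. For Hist1h2bl in library 3 the level was 308% of the control, and the 95% interval implied by the deposited p-value ran from 115% to 828%. For Hist1h2bk it was 228%, from 90.2% to 575%. The class sum was 80.9%, 107% and 224% of the control, or 137% ± 76.3 (SD, n = 3). Without library 3 the mean of the other libraries was 93.9%, so the excess over the control rested on that library.

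H3 genes encode the core histone whose tail carries many of the studied marks. Hist1h3d was at 9.07, 8.48 and 16.1 FPKM against 8.38 FPKM, and Hist1h3b at 8.68, 8.59 and 14.8 FPKM against 7.89 FPKM. Hist1h3e, with the highest mean ratio of the class, was at 6.73, 11.4 and 14.4 FPKM against 6.56 FPKM. All 3 genes were above the control in every knockdown library, by little in library 1 and most in library 3. The class medians were -0.09, 0.07 and 0.83 on the log2 scale, and 7 of 12 members were at least 1.5-fold higher in library 3, beside 8.82% of all features. The sum was 125% ± 46.2 (SD, n = 3) of the control, and 98.9% over libraries 1 and 2 alone.

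H4 genes, whose product pairs with H3, were mostly lower than the control in libraries 1 and 2 and higher in library 3. Class medians were -0.39, -0.35 and 0.94 on the log2 scale. Hist1h4m (chromosome 13, 21923716 to 21924027, mm9) was at 18.6, 33.0 and 73.6 FPKM against 40.05 FPKM. Hist1h4k was at 14.7, 21.6 and 58.0 FPKM against 37.6 FPKM, and Hist1h4d at 16.9, 24.5 and 47.8 FPKM against 24.1 FPKM. Library 3 was above the control for all 3 genes and library 1 below it, with library 2 below it for Hist1h4m and Hist1h4k and next to it for Hist1h4d. In library 3, 11 of 12 members were at least 1.5-fold higher, beside 8.82% of all features. In libraries 1 and 2, 4 and 3 members were at least 1.5-fold lower, beside 1.90% and 5.97%. The sum was 69.0%, 80.5% and 189% of the control, or 113% ± 66.3 (SD, n = 3), and 74.8% over libraries 1 and 2 alone.

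Hist2h4 was the one H4 gene that was higher by a similar amount in every knockdown library. It was at 19.4, 21.4 and 20.6 FPKM against 10.0 FPKM in the control, so the 3 knockdown values lay close together. Its log2 ratio in limma was 0.96 with an SE of 0.14 and an unadjusted p of 0.00197, and with Benjamini-Hochberg adjustment limma gave 0.892. The authors' deposited tables marked it in none of the 3 libraries, with p-values of 0.0965, 0.146 and 0.175. The 95% intervals implied by these p-values were 88.8% to 425%, 76.7% to 600% and 72.5% to 584% of the control. Each of them includes the control level. The gene lies on chromosome 3 from 96066893 to 96067240 (mm9), and 6.08% of its 50-base coding windows are found at another locus. The control value rests on 1 library, and its spread is unknown.

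Neighbouring H2A and H2B genes, which in these clusters often lie head to head around a common promoter region, differed in library 3 as their classes did. There were 10 pairs with a gap of 172 to 334 bases between the listed spans and both genes past the filter, 1 of them with the pseudogene Hist3h2bb-ps as its H2B gene. In library 3 the H2B gene stood higher relative to the control than its H2A neighbour in 10 of 10 pairs. The values were 148% to 324% for H2B and 106% to 139% for H2A. These ranges do not overlap, so any other pairing of the same genes gives 10 of 10 too. The count restates the difference between the classes and is not a result about neighbours. In library 2 this was so in 2 of 10 pairs, and in library 1 in 7 of 10. One pair is Hist1h2bk with Hist1h2ah, at 228% and 107% of the control in library 3, 113% and 124% in library 2, and 73.1% and 83.1% in library 1. These counts are a description of library 3 and the shared control, and pairs within a cluster share sequence and are not replicates.

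**Figure D3:**
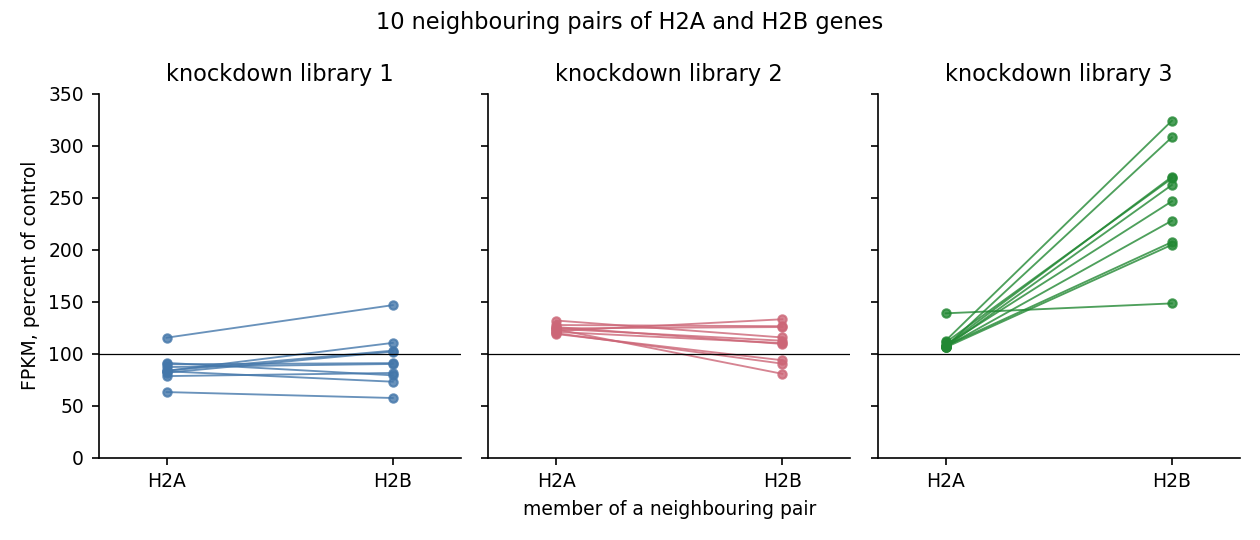
FPKM as a percentage of the control (vertical axis) for 10 neighbouring pairs of H2A and H2B genes, with 1 line per pair and 1 panel per knockdown library. In library 3 every line rises from H2A to H2B, while in library 2 it does so in 2 of 10 pairs.

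The promoter of that pair and the promoter of Hist1h4m are shown to set the region between an H2A and an H2B gene beside that of an H4 gene. Both come from the RefSeq promoter table for GRCm38.p6, 250 bases before to 50 bases after the gene start, and capitals mark the motifs searched. They lie at chr13:22035571-22035870 on the plus strand and chr13:21811496-21811795 on the plus strand.
Hist1h2bk: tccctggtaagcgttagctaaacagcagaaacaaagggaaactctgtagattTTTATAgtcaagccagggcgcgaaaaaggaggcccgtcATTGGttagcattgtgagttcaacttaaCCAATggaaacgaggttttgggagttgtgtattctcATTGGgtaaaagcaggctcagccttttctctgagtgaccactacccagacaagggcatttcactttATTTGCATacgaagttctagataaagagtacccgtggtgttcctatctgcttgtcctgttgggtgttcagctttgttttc
Hist1h4m: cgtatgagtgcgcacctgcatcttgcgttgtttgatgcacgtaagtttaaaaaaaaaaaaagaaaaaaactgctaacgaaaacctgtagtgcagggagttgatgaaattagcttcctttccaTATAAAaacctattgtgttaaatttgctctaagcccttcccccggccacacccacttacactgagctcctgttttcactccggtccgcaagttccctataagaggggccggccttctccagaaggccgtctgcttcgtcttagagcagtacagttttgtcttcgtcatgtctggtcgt
Each motif was searched on both strands. ATTTGCAT is the octamer bound by Pou2f1. CCAAT is the box bound by NF-Y. The letters TATAAA are those of the TATA box, but they were counted at any place in the window and on either strand. In the Hist1h4m promoter the marked letters lie well before the gene start. In the Hist1h2bk promoter they are on the opposite strand. A match is therefore not shown to be the TATA box of that gene. A further motif known from H1 promoters is AAACACA, and no motif contains another. A promoter entry was found for 58 of the 64 members. The octamer was in 7 of 17 H2A and 6 of 14 H2B promoters and in none of the H1, H3 and H4 promoters, where 1.74% of 32851 promoters in the table held it. CCAAT was in 6 of 6 H1, 17 of 17 H2A, 14 of 14 H2B, 10 of 10 H3 and 3 of 11 H4 promoters, against 37.4% of all. TATAAA was in 4 of 6 H1, 11 of 17 H2A, 8 of 14 H2B, 4 of 10 H3 and 7 of 11 H4 promoters, against 13.6%. AAACACA was in 5 of 6 H1, 2 of 17 H2A and 2 of 14 H2B promoters, against 7.18%. Windows of head-to-head H2A and H2B genes overlap, as those of Hist1h2bk and Hist1h2ah do, so their matches are counted for both classes.

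By position, the library 3 medians were lower on chromosomes 3 and 11 than on chromosome 13. The members lie in 4 blocks on chromosome 13, and on chromosomes 3, 11 and 6. The median log2 ratio in library 3 was 0.90, 0.67, 0.82 and 0.82 in the chromosome 13 blocks, with 14, 5, 28 and 2 members passing the filter. It was 0.38 over 9 members on chromosome 3 and 0.41 over 3 members on chromosome 11. Hist4h4, alone on chromosome 6, was at 0.98. The blocks differ in their mix of classes, and within classes the order was not the same. H2A genes on chromosomes 3 and 11 ran from 0.34 to 1.69, against at most 0.18 on chromosome 13. H2B genes past the filter there ran from 0.30 to 0.55, against at least 0.79 on chromosome 13. H3 and H4 values of chromosomes 3 and 13 overlapped. The part of position was not tested.

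The members were also split by how much coding sequence they share. Of the members, 13 shared under 40% of their coding windows, a split that was chosen after seeing the data. Their medians were -0.17, 0.23 and 0.55 in libraries 1, 2 and 3, and all 13 were higher in library 3, beside 52.0% of all features. Of them 6, or 46.2%, were at least 1.5-fold higher in library 3, against 56.5% of the 62 members and 8.82% of all features. Among these, the 3 H2A genes had a library 3 median of 0.40 and the 3 H2B genes one of 0.55. Among members sharing at least 40%, the 14 H2A genes had a median of 0.11 and the 12 H2B genes one of 1.15. The 3 H2B genes below the limit ran from 0.30 for Hist2h2bb to 1.47 for Hist1h2ba, and Hist1h2ba and Hist3h2ba lay just under it, at 38.2% and 37.7% shared. With 3 genes a class these medians rest on where the limit was set, and the part of read assignment in the H2A and H2B values was not tested.

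**Figure D4:**
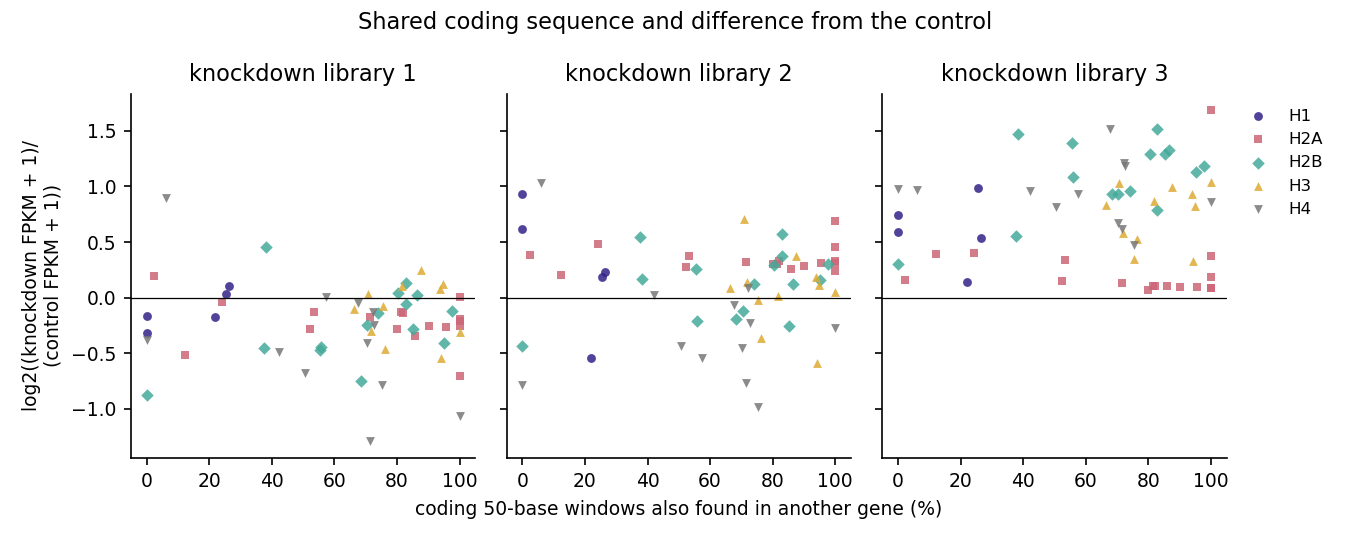
Log2 ratio to the control (vertical axis) against the share of 50-base coding windows found at another locus (horizontal axis, percent), with 1 point per gene, markers for classes and 1 panel per knockdown library. In library 3 all genes sharing under 40% lie above 0.

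Members with a longer listed span had a lower median in library 3, but they also had lower levels. The 52 members with a listed span under 1000 bases had medians of -0.25, 0.16 and 0.82. The 10 longer members, 3 of them H1 genes and with Hist2h3c2-ps among them, had medians of -0.16, 0.19 and 0.53. Their median level in the control was 4.24 FPKM, against 9.83 FPKM for the shorter members. The pseudocount understates changes of low genes, so span, level and class cannot be told apart here. FPKM of features shorter than the sequenced fragments depends on the length correction, and its part in the result was not tested.

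Replication-independent histone genes and histone messenger processing genes were not higher in library 3 in their medians. Replication-independent histone genes, 10 of which passed the filter, had medians of -0.08, 0.05 and -0.13, and 0 of 15 measured were called by the study's rule. H3f3b, an H3.3 gene, was at 438, 423 and 382 FPKM against 425 FPKM, and H3f3a, the other H3.3 gene, at 395, 481 and 386 FPKM against 392 FPKM. H2afy was listed at 0 for knockdown and control alike in the table of library 3, where its test had failed, and is not among the 10. The 20 genes of histone messenger processing had medians of 0.01, -0.07 and -0.13, with 0 called. Slbp was at 91.5, 89.4 and 89.0 FPKM against 93.9 FPKM, below the control in each library. Srrt, a cap-binding partner and the one processing gene with a deposited mark in any table, was at 101, 81.3 and 72.5 FPKM against 101 FPKM.

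Genes of DNA replication were near the control as well. The 30 S phase genes had medians of -0.06, -0.06 and -0.12, with 0 called by the study's rule. Pcna, the replication clamp, was at 383, 407 and 385 FPKM against 461 FPKM, and Mcm7 of the replicative helicase was at 227, 203 and 187 FPKM against 239 FPKM. The 21 histone chaperones had medians of 0.02, -0.05 and -0.13, with 0 called. Genes of G2 and mitosis, of which 19 of 20 passed the filter, had medians of 0.05, 0.00 and -0.01, also with 0 called. Library 3 was therefore above the control in the median of each replication-dependent histone class, though by only 0.13 for H2A. It was not above the control in the median of any of these 5 lists.

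Markers of other cell types also differed between the knockdown libraries. Pluripotency markers had medians of 0.15, 1.73 and 2.02 over the 11 that passed the filter. Of 11 that could be called, 8 were called higher by the study's rule, where 1.98% of all callable features were. None of the 12 on the list was at 0 in all libraries. Zfp42, an ES cell marker, was at 4.68, 33.0 and 58.0 FPKM against 3.74 FPKM. Neuron markers had medians of 0.14, 2.19 and 1.03 over the 9 that passed the filter, and 4 of 9 that could be called were called higher. Their sum was 155, 575 and 281 FPKM against 147 FPKM, so it was highest in library 2. Stmn2 of that list went the other way in libraries 2 and 3, at 75.4, 44.6 and 40.5 FPKM against 66.9 FPKM. Fibroblast markers, included because of the feeders, had medians of 0.12, 0.79 and 1.33 over the 8 of 12 that passed the filter. Of 9 that could be called, 3 were called higher. The sum over all 12 was 38.2, 58.5 and 90.5 FPKM against 35.4 FPKM. The part of these cell types in the histone values was not tested.

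**Figure D5:**
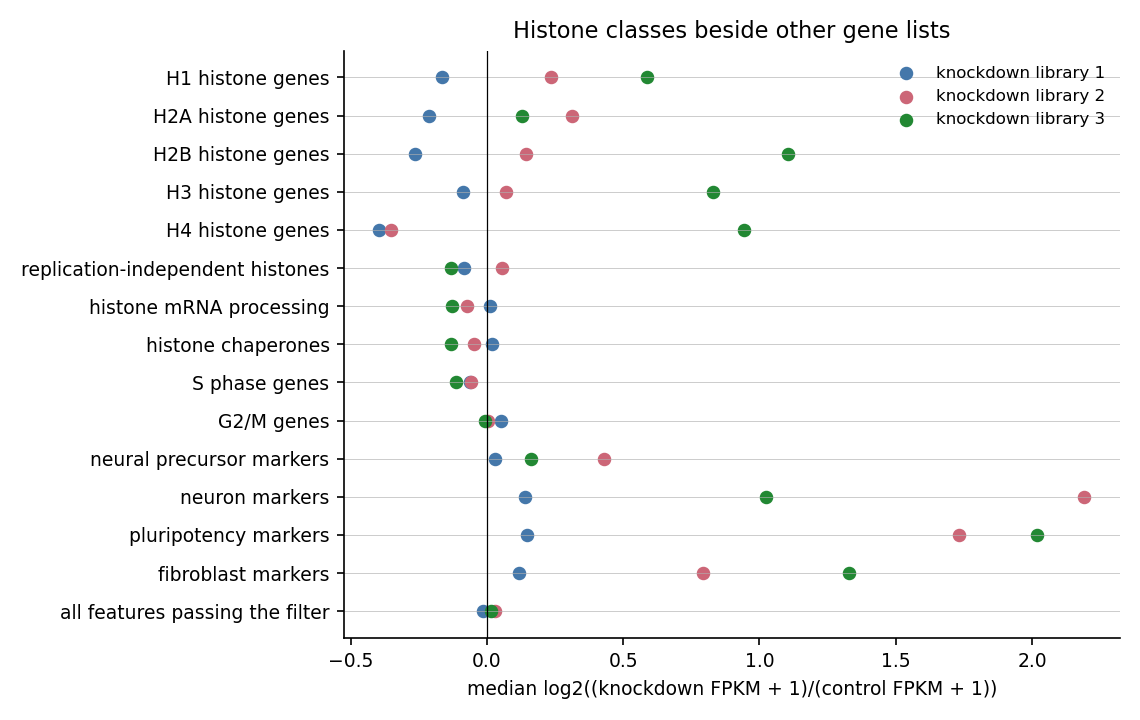
Median log2 ratio to the control (horizontal axis) for the 5 histone classes, 9 other gene lists and all filtered features, with 1 point per knockdown library. In library 3 the H1, H2B, H3 and H4 medians lie between 0.59 and 1.10, while the replication-independent histone and S phase medians are -0.13 and -0.12.

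Other short transcripts made without a poly(A) tail were looked at beside library 3, after their values had been seen. Rmrp, the RNA of an RNA-processing ribonuclease, was at 19.3, 23.5 and 85.8 FPKM against 29.1 FPKM, and Rpph1, the RNA of ribonuclease P, at 16.1, 6.16 and 37.6 FPKM against 13.4 FPKM. Both were highest in library 3. Small nucleolar RNA genes were not: 19 of the Snora family had a median log2 ratio of -0.62 in library 3, and 20 of the Snord family one of -0.11. The part of RNA selection in the library 3 histone values was not tested.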

How the data were processed

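RNA-seq was deposited for 3 Geminin knockdown libraries and 1 control library. Per the submitters' processing notes, the authors used TopHat, Cufflinks and Cuffdiff with mm9; versions, annotation and strand setting are not known from the labels. The 3 deposited tables hold, per the file headers, FPKM for 1 knockdown library and the control, a Cuffdiff p-value, a q-value (treated as a score, since it passes 1 in places) and the natural log ratio (a score, used to check direction). The 2 files that repeat marked features were not used. Control values of 6 members differed by over 0.1% between tables, so ratios were formed within a table.

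Log2 ratios use a pseudocount of 1 FPKM and understate changes of low genes; percentages of control use FPKM as deposited. Limma 3.58.1 (R 4.3.3, trended prior variance, 2 residual degrees of freedom, threshold 0.05) was fitted on 12243 features and was tested on simulated data. The 95% intervals use the SE implied by the deposited p-value, taken as two-sided and normal on the natural log scale, and compare 2 libraries only. Absolute depth is unknown; relative depth was taken from low values, whose ratios matched those of 1 to 12 whole reads within 0.2% in 84.9% to 87.8% of cases. Coding sequence and stem-loops came from GENCODE M21 (GRCm38, 62 of 64 matched), motifs from RefSeq promoters. Coordinates of genes are mm9 as deposited.

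Members and gene lists were chosen with earlier results of these data known. Genes were named by rule. In each class these were the 3 most abundant, the highest and lowest mean ratio and any marked member. In other lists they were called, marked or abundant members. Hist1h4j, Hist4h4, Hist2h2aa2, Hist2h2be, Hist2h3c1, Hist1h1t, Hist1h2aa, Hist3h2ba, Hist3h2bb-ps, H2afy, Slbp, Stmn2, Rmrp and Rpph1 were added after their values were seen. Alternatives changed the pseudocount, filter, centring, rule and libraries used.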

Additional observations from a re-analysis of the deposited data

How the results depend on the processing

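Of 161 alternative values of the main results, 151 counted as unmoved. Medians and sums had to move by less than the spread between libraries, and counts by no more than 1.5 times. The share of members at least 1.5-fold higher in library 3 was judged against a 95% binomial interval over genes. That interval is not a spread between libraries. Of 310 alternative values for single members, 309 moved by less than the spread between libraries. Leaving 1 of 3 libraries out of a mean cannot move it by as much as that spread. For class sums and single members those alternatives therefore could not come out otherwise, and they say nothing about stability. Centring shifts the log2 ratios by at most 0.03, so for class medians it could not come out otherwise either. Limma called 0 members under each of its alternatives. A deposited mark in at least 1 table, in place of 2, called 1 member. The H1 median of library 2 was 0.61 with a mean of at least 5 FPKM. Members higher in all libraries numbered 14 to 42 with 1 library left out, the most without library 1. Members lower in all numbered 1 to 19 with 1 library left out, the most without library 3, and 0 with a mean of at least 5 FPKM. Limma called 19 features over the whole table, 8 with a pseudocount of 0.1, 228 with no filter, 11 with a mean of at least 5 FPKM, and 0 to 33 with 1 library left out, 0 without library 3 and 33 without library 1. The cause was not tested. The sign of a member's mean ratio changed for 7, 17 and 19 of 62 members without library 1, 2 or 3, for 1 after centring and for 0 with a pseudocount of 0.1. No paired analysis was possible because the groups share only replicate number 1. With 1 control and no counts, neither the spread of the control nor the counting error of single genes is known, and genes at a few FPKM were the least precise.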
